A study of Mus musculus with 28 samples.

Results

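Plasma extracellular vesicles (EVs) of Klotho heterozygous mice (KlHET) were compared with those of wild-type mice (WT) after neuromuscular electrical stimulation (NMES), across every class of small non-coding RNA in the count table. The comparison used the 8 libraries labelled as KLOTHO HET with NMES and the 6 labelled as WT with NMES, which are 14 of the 28 libraries of the series. Members were taken from the genotype and treatment labels alone. All mice were 2 months old and internally bred, and KlHET mice carried 1 copy of the Kl tm1Lex allele on a mixed B6 and 129S5 background. Both groups received 5 sessions, 1 every other day, under 2.5% isoflurane, with 2 sets of 10 stimulations on each leg at 9 mA from a pen placed at the piriformis. Perfusion followed 24 h after the last session. The other 14 libraries came from 6 WT and 8 KlHET control mice that had 15 min of the same anesthesia on the same days, and they enter below only to set the genotype difference after NMES beside the one without it. Each library is 1 mouse. Every WT library name begins with A and every KlHET name with J, so genotype cannot be told apart from whatever else separated the 2 name series. Kl itself is not an entry of this table, so the genotype labels could not be checked against its transcript.

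KLOTHO is a hormone and co-receptor, best known from kidney and brain, whose loss shortens life in mice and whose level falls with age. EVs are membrane particles that cells release into blood, and they carry short RNAs from many tissues. microRNAs (miRNAs) guide silencing of mRNAs through their seed, the stretch of bases near their 5′ end. Fragments of tRNAs are abundant in plasma, small nuclear RNAs (snRNAs) build the spliceosome, and small nucleolar RNAs (snoRNAs) guide the modification of ribosomal RNA. Circular RNAs (circRNAs) are closed loops made by back-splicing. The circRNA entries of this table are annotations that received short reads, which need not cross a back-splice junction, and no host gene was assigned to them here.

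Of the 6 miRNA entries called lower in KlHET, 4 (miR-10a-5p, miR-10b-5p, miR-99b-5p and miR-100-5p) have related sequences. These and 3 relatives are printed so that their shared seeds can be compared, 5′ to 3′ from RefSeq on GRCm38.p6, with the seed (bases 2 to 8) in capitals.
miR-10a-5p: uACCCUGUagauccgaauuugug
miR-10b-5p: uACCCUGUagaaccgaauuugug
miR-99b-5p: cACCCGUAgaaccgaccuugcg
miR-100-5p: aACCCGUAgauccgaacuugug
miR-99a-5p: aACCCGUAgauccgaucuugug
miR-125a-5p: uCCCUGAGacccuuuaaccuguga
miR-125b-5p: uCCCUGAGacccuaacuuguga
Counted from the 5′ end, miR-10a-5p and miR-10b-5p differ by the single substitution U12A and share a seed. miR-99a-5p, miR-99b-5p and miR-100-5p share another seed, and miR-99a-5p differs from miR-100-5p by U16A alone. In GENCODE vM21, Mir10a lies on chromosome 11 (hairpin 96317165 to 96317274, plus strand) outside any other annotated gene. Mir10b lies on chromosome 2 (74726070 to 74726137, plus strand) within introns of Hoxd3 and Hoxd4. Mir99b (17, mature arm 17830194 to 17830215) lies within Spaca6, in an intron, and Mir100 (9, 41531425 to 41531504) within introns of the non-coding genes 3110039I08Rik and Gm49317, with an exon of Gm48742 on the other strand.

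Library totals ranged from 580603 to 1794243 counts (median 1056480) in WT NMES and from 531261 to 998236 (median 829377) in KlHET NMES. miRNAs took between 1.43% and 2.69% of a library. Levels are given as CPM, which is counts scaled to a common library size. Of 18710 entries, 6147 had enough counts to be tested (5655 circRNAs, 103 miRNAs, 321 tRNAs, 59 snRNAs and 9 snoRNAs), by edgeR's quasi-likelihood test with Benjamini-Hochberg adjustment over all 6147. An entry was called at an adjusted p under 0.05. Labelled plasma was checked against 12 miRNAs known to be abundant there: all 12 had counts and 10 were tested, while miR-16-5p (139 counts over the 14 libraries) and miR-223-3p (92 counts) fell below the filter. Library A3203 was the smallest of WT and had the fewest tRNA and circRNA entries, and J3537 (KlHET) held the highest neuronal miRNA levels.

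After NMES, 144 of the 6147 entries (2.34%) were called, 125 lower in KlHET (2.03%) and 19 higher (0.309%). By class these were 6 of 103 miRNAs, all lower, 3 of 321 tRNAs (2 lower, 1 higher), 1 snRNA of 59 (higher), no snoRNA of 9, and 134 of 5655 circRNAs (117 lower, 17 higher). Every KlHET library was below every WT library for 90 entries (1.46%) and above every WT library for 24 (0.39%). At an unadjusted p under 0.05, 556 entries (9.05%) were lower and 420 (6.83%) higher. The median log2 difference of all tested entries was 0.04. Scaling by the library total alone moved that median to 0.34, and its 75 calls split into 46 lower and 29 higher. DESeq2 called 366 entries, 251 lower and 115 higher.

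**Figure D1:**
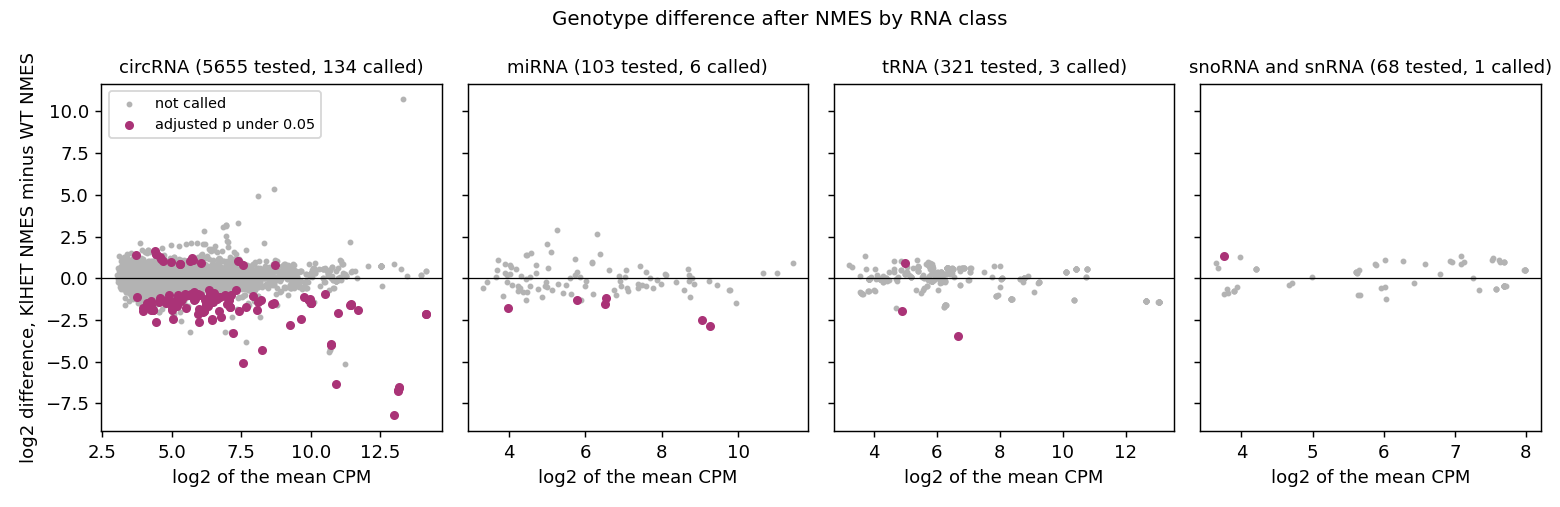
Log2 difference (KlHET NMES minus WT NMES) against the log2 of the mean CPM for each tested entry, in 4 panels by RNA class, with called entries in purple. Called circRNAs and miRNAs lay mostly below 0 (117 of 134 and 6 of 6).

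The miR-10 pair differed most clearly among miRNAs. miR-10a-5p had 547, 854 and 1385 CPM (lowest, median and highest) in WT NMES and 101, 140 and 251 CPM in KlHET NMES. All 8 KlHET libraries were thus below the lowest WT library, and the fitted level was 5.72-fold higher in WT (log2 difference -2.52, SE 0.26, edgeR adjusted p = 0.000128). miR-10b-5p ranged from 646 to 1615 CPM in WT and from 46.9 to 269 CPM in KlHET, again without overlap (log2 -2.84, SE 0.36, adjusted p = 0.000836). Together these 2 miRNAs made up 5.65% to 11.5% of a WT library's miRNA counts and 0.893% to 2.16% of a KlHET library's. Their sequences differ by 1 base, and how the counting assigned reads between them is not given in the sources used here. Both were called in every alternative fit and with each library left out, with adjusted p up to 0.00111 and 0.00387 over the alternatives.

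miR-99b-5p and miR-100-5p, which share the other seed, were also lower in KlHET. miR-99b-5p had 48.2 to 99.5 CPM in WT and 15.0 to 49.5 CPM in KlHET, so that 7 of 8 KlHET libraries lay below the lowest WT library (log2 -1.30, SE 0.27, adjusted p = 0.0126). It was called with each library left out, but not when each class was fitted by itself, under library totals alone or in the fit of all 28 libraries (highest adjusted p over the alternatives 0.0704). miR-100-5p had 93.6 to 182 CPM in WT and 9.01 to 95.2 CPM in KlHET (log2 -1.52, SE 0.38, adjusted p = 0.0407). Its call was kept in only 3 of 14 fits with 1 library left out, the least favourable being that without A3199 (log2 -1.37 to -1.75 over these fits, adjusted p up to 0.0943).

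The rest of the family was not called. miR-99a-5p, which differs from miR-100-5p by 1 base, ranged from 180 to 372 CPM in WT and from 131 to 449 CPM in KlHET (log2 0.18, SE 0.30, adjusted p = 0.828). The groups overlapped over most of their range, and the difference between the changes of miR-99a-5p and miR-100-5p was not tested. miR-125a-5p had a log2 difference of -1.07 (SE 0.53, adjusted p = 0.348) and miR-125b-5p one of -0.48 (SE 0.59, adjusted p = 0.755). Over the 7 members of the miR-10, miR-99/100 and miR-125 families, all tested, 4 were lower and none higher against 2.03% of all entries lower, with a median log2 difference of -1.30.

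**Figure D2:**
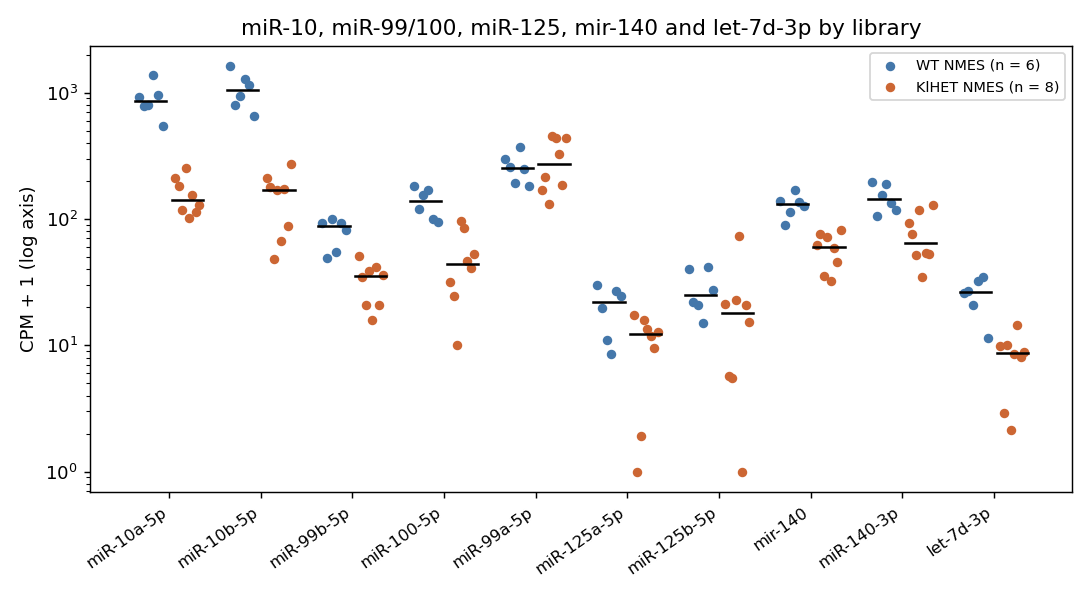
CPM + 1 on a log axis for 10 miRNA entries, 1 point per library, with WT NMES in blue, KlHET NMES in orange and the median as a bar. The miR-10a-5p, miR-10b-5p and mir-140 points of the 2 groups do not overlap, whereas those of miR-99a-5p do.

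The remaining called miRNA entries were mir-140 and let-7d-3p. mir-140, the precursor entry of a miRNA known from cartilage and other mesenchymal cells, had 89.0 to 170 CPM in WT and 31.2 to 80.7 CPM in KlHET without overlap (log2 -1.17, SE 0.24, adjusted p = 0.0104). It lost the call in the same 3 alternatives as miR-99b-5p (adjusted p up to 0.18). Its mature arm miR-140-3p, whose sequence lies within the precursor, was at a median of 143 CPM in WT and 63.5 CPM in KlHET and missed the threshold (log2 -0.99, SE 0.28, adjusted p = 0.079). let-7d-3p, the 3′ arm of its hairpin, had 10.3 to 33.8 CPM in WT and 1.15 to 13.4 CPM in KlHET (log2 -1.78, SE 0.40, adjusted p = 0.0237). It was called in 10 of 14 fits with 1 library left out. The 5′ arm, let-7d-5p, had a log2 difference of 0.13 (SE 0.33, adjusted p = 0.893). Neither miR-140-3p nor let-7d-3p shares a seed with the sequences above.
miR-140-3p: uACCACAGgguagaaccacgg
let-7d-3p: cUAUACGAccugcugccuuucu

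No miRNA was called higher, although 12 of 103 were higher and 18 lower at an unadjusted p under 0.05 (6.83% and 9.05% of all entries). Among lower miRNAs that missed the adjusted threshold, miR-122-5p, the most abundant miRNA of hepatocytes, had 636 to 2288 CPM in WT and 73.7 to 1185 CPM in KlHET, with all 8 KlHET libraries below the WT median (log2 -1.50, SE 0.47, adjusted p = 0.108). DESeq2 called it, at an adjusted p of 0.0284. The other tested miRNAs of the liver list were positive without a call, miR-192-5p at log2 0.71 (SE 0.36, adjusted p = 0.353) and miR-148a-3p at log2 0.34 (SE 0.32, adjusted p = 0.647). The 3 tested vascular miRNAs were lower without a call. miR-143-3p of smooth muscle had a log2 difference of -1.10 (SE 0.35, adjusted p = 0.124) and was called in 1 of 11 alternative fits. miR-126a-3p of endothelium had one of -0.78 (SE 0.27, adjusted p = 0.165) and miR-221-3p one of -0.76 (SE 0.37, adjusted p = 0.334). miR-532-5p, named after its values were seen, was the fourth miRNA entry without overlap, at 21.0 to 59.8 CPM in WT and 0 to 17.5 CPM in KlHET (log2 -1.32, SE 0.40, adjusted p = 0.106). miR-30a-5p and miR-30d-5p had log2 differences of -0.73 and -0.60 (adjusted p = 0.165 and 0.218).

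Lists of miRNAs by tissue of origin held no call after NMES beyond the miR-10 family. In bulk EV RNA, fewer vesicles of a source and less RNA per vesicle cannot be told apart. Median log2 differences were -0.38 for the 10 tested plasma miRNAs, 0.34 for 3 of liver and -0.69 for 3 erythroid ones. They were -0.72 for 2 of skeletal muscle, the stimulated tissue, and -0.10 for 7 of the let-7 family. Over all 103 tested miRNAs the median was -0.22, and over all entries 0.04. The miRNA median depended on scaling: it was 0.11 under library totals alone and 0.02 with each class fitted by itself. miR-1a-3p of striated muscle had a log2 difference of -0.58 (SE 0.42, adjusted p = 0.534) and miR-206-3p, specific to skeletal muscle, one of -0.86 (SE 0.56, adjusted p = 0.482). miR-208b-3p and miR-499-5p, 2 further muscle miRNAs, had no count in the 14 libraries. The summed muscle list ranged from 105 to 403 CPM in WT and from 61.3 to 295 CPM in KlHET.

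The 3 tested neuronal miRNAs had higher fitted levels in KlHET, in large part through 1 library. miR-9-5p ranged from 1.07 to 22.3 CPM in WT and reached 415 CPM in J3537 against 38.6 CPM in the next KlHET library (log2 2.92, SE 1.01, adjusted p = 0.162). Without J3537 its log2 difference was 0.98 (adjusted p = 0.434), that of miR-128-3p went from 1.44 to 0.25 and that of miR-127-3p from 1.56 to 0.61. Of the 8 KlHET libraries, 7 were above the WT median for miR-9-5p, 6 for miR-127-3p and 5 for miR-128-3p. The summed neuronal list, of which 10 of 12 had a count, was 1466 CPM in J3537 and at most 183 CPM in the other 13 libraries. miR-124-3p, the defining miRNA of neurons, had 16 counts over the 14 libraries.

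Entries for tRNAs moved in both directions and few were called. Many gene copies of a tRNA had the same counts, and the 321 tested entries held only 193 distinct count profiles. tRNA-Trp-CCA-6-1 was called lower (log2 -3.43, SE 0.79, adjusted p = 0.0275), with 24.9 to 921 CPM in WT and 3.44 to 36.5 CPM in KlHET. The 921 CPM came from A3203, and the next WT library had 69.2 CPM. Without A3203 the log2 difference was -1.31 and the call was lost (adjusted p = 0.11). tRNA-Gly-ACC-1-1 was called lower (log2 -1.95, SE 0.47, adjusted p = 0.0353), at 13.4 to 84.1 CPM in WT and 0 to 27.2 CPM in KlHET, and it was called in 6 of 14 fits with 1 library left out. The single tRNA called higher was tRNA-Arg-CCG-3-1, at 14.8 to 31.2 CPM in WT and 32.4 to 63.3 CPM in KlHET without overlap (log2 0.91, SE 0.23, adjusted p = 0.0434), a call kept in 1 of 14 such fits.

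Of 13 tested isoleucine tRNA entries, 12 were above every WT library in every KlHET library, and none passed the test. tRNA-Ile-AAT-2-1, the most counted copy, had 961 to 1575 CPM in WT and 1742 to 2698 CPM in KlHET (log2 0.55, SE 0.22, adjusted p = 0.225). The 12 fell into groups of nearly the same counts. The background over all entries was 0.39%, or 24 entries, and these include the 12. The summed isoleucine isotype had a log2 difference of 0.54 (SE 0.32, adjusted p = 0.442).

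The most abundant tRNAs in these EVs were glycine and glutamate, whose 5′ fragments are common in plasma. tRNA-Gly-GCC-2-1 had 4068, 10042 and 27668 CPM (lowest, median, highest) in WT and 1561, 2721 and 12980 CPM in KlHET. Of the 8 KlHET libraries, 7 were below the WT median, yet the groups overlapped and the difference missed the threshold (log2 -1.40, SE 0.54, adjusted p = 0.209). tRNA-Glu-CTC-1-1 had a median of 7087 CPM in WT and 3095 CPM in KlHET (log2 -1.35, adjusted p = 0.179 in the isotype fit). With the counts of each isotype summed, 1 of 21 isotypes was called, tryptophan (log2 -2.60, SE 0.68, adjusted p = 0.0489), against 2.55% of all entries of that fit, and 12 of the 14 fits with 1 library left out, that without A3203 among them, called no isotype. tRNAs took 23.2% ± 11.6 (SD, n = 6) of WT counts and 15.3% ± 6.85 (SD, n = 8) of KlHET counts (two-sided exact permutation p = 0.136, adjusted p = 0.371 over 11 library measures). With 1 library left out the difference ranged from -10.3 to -3.87 percentage points, with unadjusted exact p up to 0.347. Without J3537 it was -9.98 (unadjusted exact p = 0.0332).

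**Figure D3:**
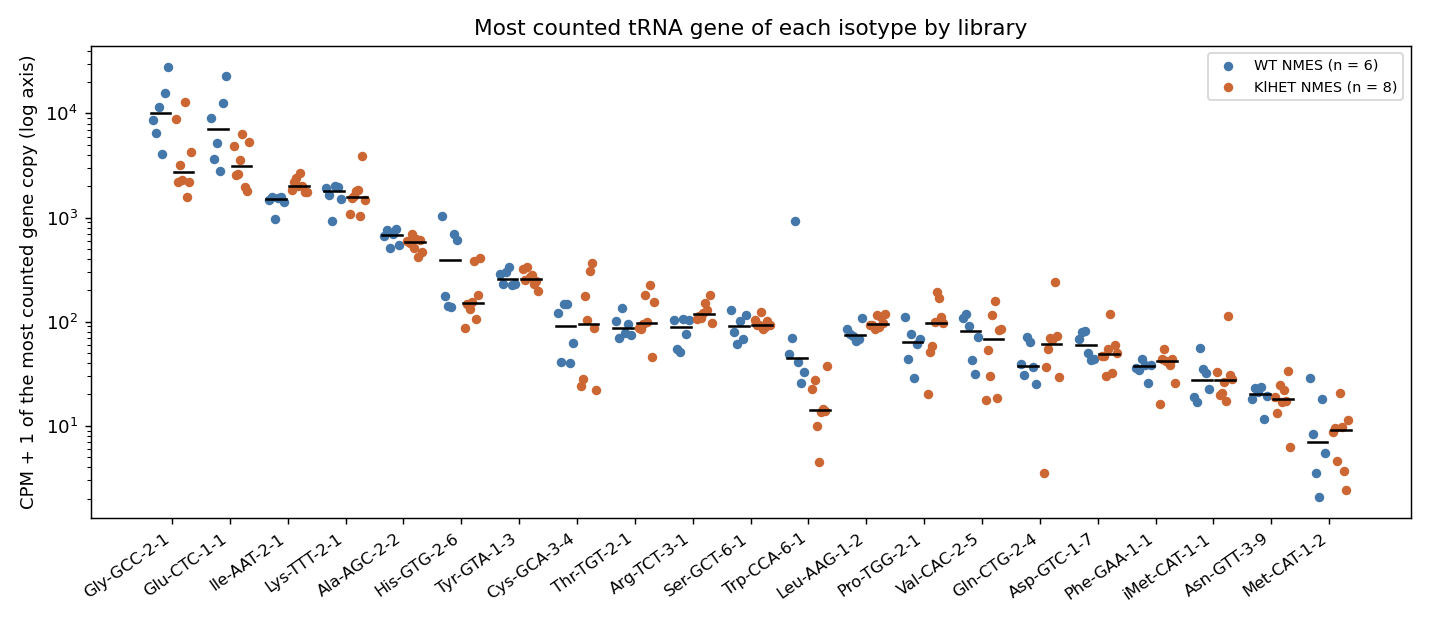
CPM + 1 on a log axis of the most counted gene copy of each tRNA isotype, 1 point per library, ordered by level, with WT NMES in blue, KlHET NMES in orange and medians as bars. Gly-GCC-2-1 and Glu-CTC-1-1 medians were lower in KlHET with overlapping groups, Ile-AAT-2-1 points do not overlap, and the high Trp-CCA-6-1 point is A3203 at 921 CPM.

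Among snRNAs, the U1 and U2 groups differed in direction. Most tested snRNA entries are predicted genes, so each was assigned by sequence (blastn) to its closest named snRNA. This grouping was made after the values were seen and carries no test. U1, which pairs with the 5′ splice site, was the closest for 32 entries, of which 26 had a negative log2 difference (median -0.45). U2, which pairs with the branch point, was the closest for 24 entries, and all 24 were positive (median 0.97). Copies are close in sequence, so these entries are not independent, and none of the 56 was called. At an unadjusted p under 0.05, 7 U1 entries were lower and 15 U2 entries higher. Over all entries 9.05% were lower and 6.83% higher, and copies with identical values were counted separately. The U1 direction depended on scaling: with snRNAs and snoRNAs scaled among themselves 21 of 32 U1 entries were positive, whereas all 24 U2 entries stayed positive in each of 4 other scalings.

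A ratio within a library does not depend on scaling. Counts of Rnu2-10 (U2) per count of Rnu1a1 (U1) ranged from 0.56 to 1.19 over the 6 WT libraries. In KlHET, J3512, J3531, J3514 and J3527 stood at 2.17, 2.28, 6.05 and 7.09, and the other 4 between 0.669 and 0.876. The KlHET libraries were therefore split, with 4 above every WT library and 4 inside the WT range. In control mice 31 of 32 U1 entries were negative (median log2 -1.61) and 22 of 24 U2 entries positive (median 2.42), values that leaned on the control libraries J3517 and A3206. Without these libraries 29 U1 entries were negative (median -0.30) and 22 U2 entries positive (median 0.77), and the log2 difference of Rnu2-10 went from 2.09 to 0.34.

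**Figure D4:**
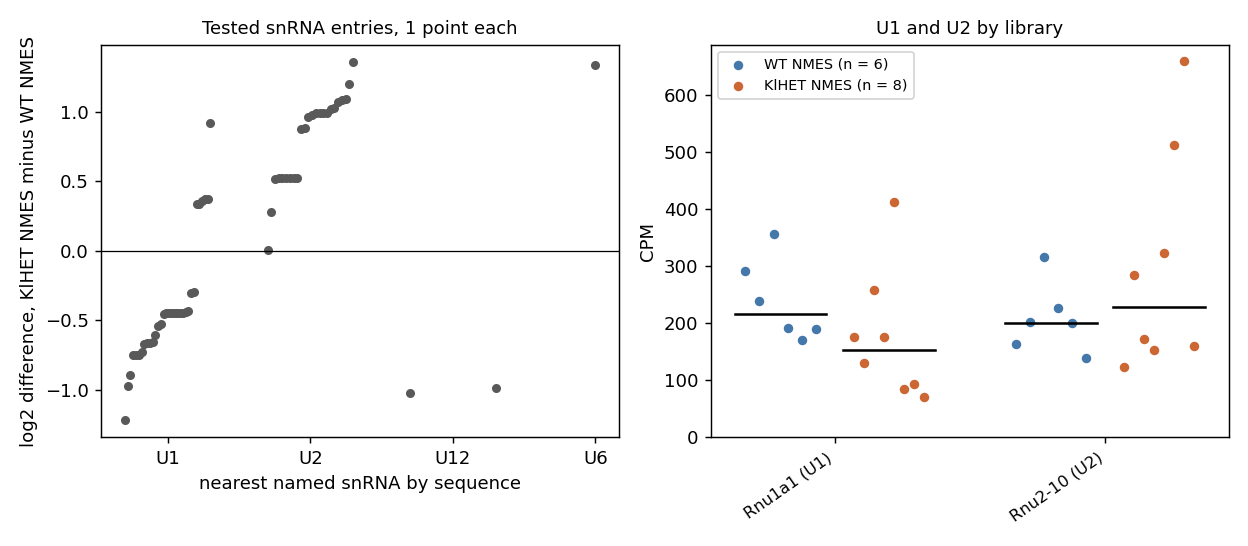
Left, log2 difference (KlHET NMES minus WT NMES) of each tested snRNA entry by closest named snRNA. Right, CPM of Rnu1a1 and Rnu2-10 by library, WT NMES in blue, KlHET NMES in orange and medians as bars. U2 entries all lie above 0 and 26 of 32 U1 entries below.

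The only called snRNA was Gm26257, a predicted gene on chromosome 10 (51182299 to 51182405, plus strand, GRCm38) that aligns to the U6 pseudogene Rnu6-ps2 at 81.7% identity over 93 bases. It had 2.49 to 10.7 CPM in WT and 11.2 to 31.2 CPM in KlHET without overlap (log2 1.33, SE 0.34, adjusted p = 0.0476). It kept the call in only 2 of 14 fits with 1 library left out, with adjusted p up to 0.116 in the fit without A3201. Its GENCODE sequence is shown because it is the single called entry of this class.
Gm26257: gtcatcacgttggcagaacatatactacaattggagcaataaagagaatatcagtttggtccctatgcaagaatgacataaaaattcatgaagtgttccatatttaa
Gm25682, closest to U1, had the smallest p among lower snRNAs (log2 -1.21, SE 0.36, adjusted p = 0.0887), and without J3537 it passed the threshold (log2 -1.55, adjusted p = 0.0125).

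None of the 9 tested snoRNAs was called by edgeR, while 3 were higher at an unadjusted p under 0.05 (6.83% of all entries). All 9 had positive log2 differences, but 4 of them, the U3 copies Rnu3b1 to Rnu3b4, had identical counts, with 89.9 CPM in J3537 and at most 20.8 CPM in the other KlHET libraries. Without J3537 the log2 difference of these 4 turned from 0.54 to -0.31 (adjusted p = 0.745), and that of the other 5 stayed positive. Snord14d, a box C/D snoRNA hosted by Hspa8, had 23.6 to 54.7 CPM in WT and 32.2 to 121 CPM in KlHET (log2 0.84, SE 0.28, adjusted p = 0.133). Snord14c, 97.7% identical to it over 86 bases, gave nearly the same counts. Snord85 had a log2 difference of 1.26 (SE 0.53, adjusted p = 0.239). snoRNAs took 0.0531% ± 0.0146 of WT counts and 0.107% ± 0.0568 of KlHET counts (SD, two-sided exact permutation p = 0.0276, adjusted p = 0.304 over 11 measures). Fitted by themselves, 25 of 71 snoRNA and snRNA entries were called higher and none lower, Snord14d among them (log2 1.63, adjusted p = 0.00498). Fitting each class by itself called 178 of 6427 entries in all, 41 of them higher. Many snRNA and snoRNA entries are copies with nearly the same counts, so the 25 are not independent. Calls in this class thus turn on the scaling.

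Of circRNA entries, 2.37% (134 of 5655) were called, against 2.34% of all entries. circRNAs made up 5655 of the 6147 tested entries, so these shares had to be close. The 134 called entries reduced to 99 groups once those whose counts agreed within 10% were joined (86 lower, 13 higher). 1 of the 134, mmu_circ_0010180, had nearly the counts of miR-10b-5p: they differed from that miRNA's by 1.12% over 28 libraries, and it had the smallest p of the class (log2 -2.78, SE 0.34, adjusted p = 0.000775). No other called circRNA was within 10% of a miRNA, tRNA, snoRNA or snRNA entry. mmu_circ_0011427 had 89.9 to 326 CPM in WT and 21.7 to 65.1 CPM in KlHET (log2 -2.34, SE 0.31, adjusted p = 0.000987). mmu_circ_0010113 had 169 to 548 CPM in WT and 64.9 to 128 CPM in KlHET (log2 -1.73, SE 0.24, adjusted p = 0.00133). mmu_circ_0015790 and mmu_circ_0015791 had identical counts in the 14 libraries (log2 -1.71, SE 0.23, adjusted p = 0.000987). In each of these entries all 8 KlHET libraries were below the lowest WT library.

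The log2 differences of the 117 lower circRNAs ranged from -8.22 to -0.68 (median -1.47). Of these 117, 72 had no overlap between groups, against 86 of all 5655 tested circRNAs and 1.46% of all entries. Calls and overlap were read from the same values, so frequent lack of overlap among called entries is no separate result. The most abundant called pair, mmu_circ_0003655 and mmu_circ_0003656, named after their values were seen, had 17862 to 41263 CPM and 17837 to 41244 CPM in WT and 4165 to 12400 CPM and 4141 to 12385 CPM in KlHET. Their log2 differences were -2.12 and -2.13 (SE 0.37, adjusted p = 0.00457 for both) with no overlap, and their counts differed from each other by 0.231%. The largest folds were of another kind. All 11 called circRNAs with a log2 difference below -3 had overlapping groups, and for mmu_circ_0004863 (22576 CPM in A3203), mmu_circ_0005234 (2167 CPM in A3201) and mmu_circ_0014348 (3301 CPM in A3205) the other 5 WT libraries stayed at or below 88.7, 21.4 and 53.8 CPM. Without the named library their log2 differences were -0.33, -0.37 and -0.22 and none was called (adjusted p = 0.465, 0.762 and 0.849). Of the 117, 8 had 1 library that made up most of its group's total. mmu_circ_0012320, with the lowest log2 difference (-8.22), had 87960 CPM in A3205 and 39.1 to 6267 CPM in the other 5 WT libraries. mmu_circ_0008812 and mmu_circ_0008822 had 16403 and 16394 CPM in A3209 and at most 844 and 873 CPM in the other 5. Fits of these entries without A3205 or A3209 are not given here.

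Higher circRNAs were fewer and changed less, with log2 differences from 0.82 to 1.61 (median 1.06). Of these 17, 5 had no overlap, against 10 of all 5655 tested circRNAs and 0.39% of all entries. mmu_circ_0008889 had 27.4 to 49.4 CPM in WT and 47.2 to 112 CPM in KlHET (log2 1.07, SE 0.21, adjusted p = 0.00785). mmu_circ_0008890 gave similar values (log2 1.06, adjusted p = 0.0108), as did mmu_circ_0000046 (log2 0.89, adjusted p = 0.0164). mmu_circ_0015760 had a log2 difference of 1.19 (adjusted p = 0.018), and mmu_circ_0007470 rose without overlap, with 81.7 to 141 CPM in WT and 160 to 423 CPM in KlHET (log2 1.04, SE 0.24, adjusted p = 0.0247). Its call was kept in 10 of 14 fits with 1 library left out. Between 4 and 19 entries of all classes were called higher when 1 library was left out, with the lowest number without A3199.

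The genotype difference was then set beside that of the control mice, which share no library with it, in 1 fit of all 28 libraries, whose scaling sets the CPM values of control mice. Of the 144 entries called after NMES, 130 (90.3%) had the same sign in control mice, against 61.5% of all 6147 entries, and 26 were also called there, where 4.36% of entries were called. These shares carry no test, because that fit estimated the spread from all 28 libraries and many of the 144 have nearly the same counts. The control comparison rested in part on the libraries J3517 and A3206. It held 313 calls with them (130 lower, 183 higher) and 65 of 7393 without them (62 lower, 3 higher). Of the 144, 17 were then called, and 137 (95.1%) had the same sign, against 62.7% of 6146 entries. miR-10a-5p had 785 to 1558 CPM in WT control and 69.1 to 578 CPM in KlHET control (log2 -2.77, SE 0.40, adjusted p = 0.000881), and miR-10b-5p 754 to 1397 CPM and 38.1 to 418 CPM (log2 -2.68, SE 0.43, adjusted p = 0.0018). Neither pair of groups overlapped. miR-100-5p (log2 -3.23, adjusted p = 0.00621) and miR-99b-5p (log2 -1.79, adjusted p = 0.0128) were also lower. Without J3517 and A3206 miR-99b-5p was no longer called (adjusted p = 0.0581), and miR-100-5p, at 1239 CPM in A3206, had a log2 difference of -2.06 (adjusted p = 0.0359). mir-140 (log2 -0.84, adjusted p = 0.25) and let-7d-3p (log2 -1.11, adjusted p = 0.147) were not called in control mice. Among named miRNAs not called after NMES, miR-122-5p (log2 -2.26, adjusted p = 0.024), miR-143-3p (log2 -2.04, adjusted p = 0.0102) and miR-126a-3p (log2 -1.70, adjusted p = 0.0216) were called lower there. These calls held without J3517 and A3206 (adjusted p = 0.047, 0.0328 and 0.0487). miR-9-5p and miR-128-3p were called lower in KlHET control mice (log2 -5.91 and -4.48, adjusted p = 0.0216 for both). Without J3517 and A3206 neither was called (log2 -0.80 and -0.13).

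Whether stimulation altered the genotype difference was tested by the interaction of genotype and treatment. No entry of 7174 was called by edgeR, with 621 at an unadjusted p under 0.05 and a smallest adjusted p of 0.169, and none by DESeq2, with 477. For miR-10a-5p the difference of the 2 genotype effects was 0.26 on the log2 scale (SE 0.55, unadjusted p = 0.646) and for miR-10b-5p -0.15 (SE 0.59, unadjusted p = 0.806). For miR-100-5p it was 1.72 (SE 0.82, unadjusted p = 0.0445, adjusted p = 0.554), and without J3517 and A3206 it was 0.55 (SE 0.67, unadjusted p = 0.415). In that fit, which also called no entry (486 of 7393 at an unadjusted p under 0.05), let-7d-3p had a difference of -1.16 (SE 0.55, unadjusted p = 0.0441, adjusted p = 0.741). An interaction that misses the threshold does not show that the 2 differences were alike.

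**Figure D5:**
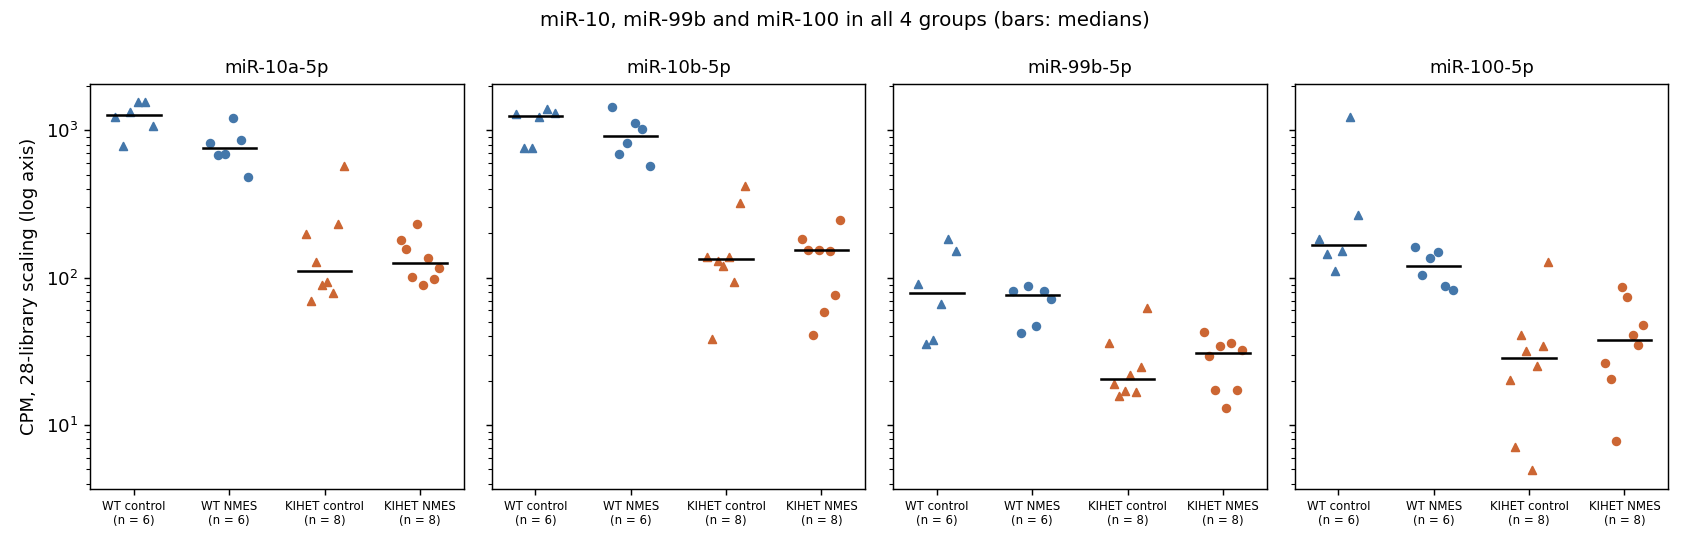
CPM on a log axis of miR-10a-5p, miR-10b-5p, miR-99b-5p and miR-100-5p in all 28 libraries, by group, with WT in blue, KlHET in orange, triangles for control, circles for NMES and medians as bars. miR-10a-5p and miR-10b-5p of KlHET lie below those of WT with and without NMES.

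Counts of detected entries did not pass a test. WT libraries held 276 ± 30.5 miRNA entries with at least 1 count and KlHET libraries 266 ± 24.8 (SD, two-sided exact permutation p = 0.524, n = 6 and 8). For tRNAs the means were 402 ± 22.9 and 402 ± 7.17 entries and for snoRNAs 109 ± 16.6 and 131 ± 36.5, with exact permutation p of 0.992 and 0.198. None of the 11 library measures, the total included, reached an adjusted p under 0.05, and the smallest p this design allows is 0.000333.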

How the data were processed

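Plasma EV small RNA was sequenced by the authors as single-end reads, aligned with STAR 2.5.3a (mm10 in the submitters' processing notes) and counted with COMPSRA, and the deposited values are raw counts per annotated non-coding RNA. How multi-mapping reads and strand were treated is not given in the sources used here. The authors used DESeq2 1.42.1.

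From these counts, the 14 NMES libraries were fitted together over all RNA classes with edgeR 4.0.16 in R 4.3.3 (filterByExpr by group with its minimum count of 10, TMM scaling, quasi-likelihood test, Benjamini-Hochberg adjustment over all tested entries). Standard errors are the log2 difference divided by the square root of F. CPM uses TMM-scaled library sizes. Library shares and detected entries were compared by two-sided exact permutation tests. Alternatives were DESeq2 1.42.0, other scalings and filters, a robust fit, all 28 libraries, and each library left out, and control values were also taken without J3517 and A3206 (chosen after seeing the data). Mature miRNA sequences were read from RefSeq tables (GRCm38.p6), gene positions from GENCODE vM21, and snRNA matches from blastn 2.17.0. No column of per-sample values was left unused, and reads carried no molecular identifiers. The p-values measure the spread between mice. On simulated counts for the 6147 tested entries of this comparison, 21% of 2-fold and 80% of 4-fold changes were recovered, with 4 false calls. Simulated entries were drawn independently, without copies that share counts or single libraries far above their group. The false calls that such entries give in the real data were therefore not measured.

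Named entries were, per class, up to 6 called entries in each direction by smallest p (5 for circRNAs), the 3 with the smallest p in a direction with fewer than 3 called, the 5 most counted (not for circRNAs), and members of miRNA lists with an unadjusted p under 0.05. Members, lists and tests were chosen with earlier results of these data known. Replicate numbers follow accession order and pair no samples.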

Additional observations from a re-analysis of the deposited data

Results flagged for a closer look

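Of 126 sets of 6 or 8 library values checked (52 named entries and 11 library measures in each group), 21 held a library whose gap to the next exceeded Dixon's critical value at 95%. For independent, normally spread values, chance alone flags about 1 in 20 sets. The flagged CPM values were all the highest of their set, and some named entries have nearly the same counts. The 21 of 126 therefore cannot be set against that share. Their causes were not tested.

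In KlHET NMES, J3537 stood apart at 415 CPM for miR-9-5p (next 38.6), 605 CPM for miR-128-3p (next 76.2), 226 CPM for miR-127-3p (next 80.1) and 98.7 CPM for Gm25682 (next 53.2). J3527 had 932 CPM of miR-8117 (next 34.3), 78.6 CPM of tRNA-Ala-CGC-4-1 (next 46.0) and 139 CPM of mmu_circ_0015760 (next 87.4). Without J3527 the log2 difference of miR-8117 went from 2.65 to 0.03. J3514 had 423 CPM of mmu_circ_0007470 (next 248), J3508 had 1565 CPM of miR-486b-5p (next 857), J3531 had 202 CPM of miR-126a-3p (next 122), and J3519 held 195 snRNA entries with at least 1 count (next 149).

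In WT NMES, A3203 had 921 CPM of tRNA-Trp-CCA-6-1 (next 69.2), 4569 CPM of mir-5119 (next 1785) and 5181 CPM of miR-5119 (next 1547), and the fewest entries with at least 1 count among tRNAs (357, next 403) and circRNAs (9482, next 10944). A3205 had 2673 CPM of miR-148a-3p (next 1454) and 34.4 CPM of miR-127-3p (next 17.3). A3201 had 27.2 CPM of Gm23330 (next 17.4) and 49.4 CPM of mmu_circ_0008889 (next 35.6), and A3207 had 275 CPM of miR-30d-5p (next 203). Of these, tRNA-Trp-CCA-6-1 and the 3 circRNAs were called, and the tRNA alone lost its call without the library that stood apart.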

How the results depend on the processing

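Over 25 other settings, the 52 named entries kept their direction everywhere. Of their values, 1182 stayed on the same side of the threshold, 90 lost the call and 21 gained it. miR-10a-5p and miR-10b-5p were called throughout. Calls of all entries moved to 251 lower and 115 higher with DESeq2 (137 shared with the 144), to 46 and 29 with the library total alone (60 shared) and to 41 higher with each class by itself (77.0% of its 178 calls lower, against 86.8%). By class, DESeq2 called 14 miRNAs, 30 tRNAs, 4 snoRNAs and snRNAs and 318 circRNAs. Library totals alone called 2, 1, 1 and 71, and each class by itself called 3 miRNAs, 0 tRNAs and 25 snoRNAs and snRNAs. The single snRNA call was 0 with TMMwsp, without a filter, with all 28 libraries and in the robust fit, and 3 (all lower) without A3203 and J3537 together, a setting chosen after seeing the data. Isotypes fitted by themselves gave 0 calls. With 1 library left out, between 94 and 131 entries were lower and 4 to 19 higher, and the calls were 4 to 9 for miRNAs, 0 to 3 for tRNAs, 0 to 4 for snoRNAs and snRNAs, 93 to 140 for circRNAs and 0 or 1 for isotypes. Differences of shares (KlHET minus WT, percentage points) then ranged from -10.3 to -3.87 for tRNA (unadjusted exact p up to 0.347). They ranged from 0.0381 to 0.0622 for snoRNA (unadjusted exact p up to 0.0645) and from 3.54 to 9.81 for circRNA (unadjusted exact p up to 0.383). Without J3537 alone the tRNA difference was -9.98 and the circRNA one 9.55 (unadjusted exact p = 0.0332 and 0.0396). Detected miRNA and circRNA entries differed by 1.5 and 208 after thinning to the smallest total, turning from -9.5 and -105, and tRNA entries with at least 5 counts by -1.21, turning from 0.25, with every exact p at 0.363 or above. No paired analysis was possible because the labels number no replicates. Causes were not tested. Depth limited what could be tested: 103 of 1240 miRNAs, 59 of 753 snRNAs and 9 of 864 snoRNAs in the table passed the filter on low counts.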
